A study of Mus musculus with 12 samples.

Results

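The Notch receptors, ligands and targets followed here are 10 genes: the receptors Notch1, Notch2, Notch3 and Notch4, the ligands Jag1 and Jag2, and the target genes Hes1, Hey1, Hey2 and Heyl. They were taken by symbol from both deposited comparison tables, of which that of 4 h lists 26240 genes, that of 24 h 27020 and either of them 29030, and all 10 passed the filter on low counts in every comparison. RNA was sequenced from primary cardiac fibroblasts of C57BL/6 mice, the matrix-producing cells of the heart, grown in DMEM with 10% serum. The cells received ethanol as vehicle or 6 µM MCB-613-10-1, a derivative of MCB-613 that the series studies for its effect against fibrosis, and were harvested after 4 h or 24 h, which makes 4 groups with 3 libraries apiece. Nothing in the labels tells whether the libraries of a group came from separate cultures or animals, so a p-value speaks only of the spread among these libraries, and that spread may be technical.

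Notch receptors are membrane proteins that bind Jagged or Delta-like ligands on a neighbouring cell. Binding leads to cleavage by an ADAM protease and then by gamma-secretase, and the freed intracellular domain enters the nucleus and joins the DNA-binding protein RBPJ and a Mastermind coactivator. The Hes and Hey genes, which encode basic helix-loop-helix repressors, are the best known targets of that complex. In blood vessels Notch3 and Heyl are known from pericytes and smooth muscle cells and Notch4 from endothelium, while Notch1 and Notch2 are expressed widely.

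Libraries held 25016754 to 34877090 counts. Levels are CPM, the count of a gene as a share of its library, after TMM scaling, which corrects library totals for differences in composition. The fibroblast label was checked against 10 markers, whose summed level was 9540 to 10740.3 CPM in vehicle at 4 h, 9515 to 11277 after 4 h of treatment, 9611 to 12068 in vehicle at 24 h and 4466 to 4768 after 24 h of treatment. Col1a1 and Col1a2, the chains of type I collagen, made up most of that sum. At 24 h 7 of the 10 markers fell and 2 rose. Of all genes tested at that time, 38.0% fell and 36.7% rose at an edgeR adjusted p under 0.05. Of 6 tested leukocyte markers 5 fell and 1 rose at 24 h, to be read beside the same shares. Their summed level was 325 to 379 CPM in vehicle and 144 to 165 CPM after treatment. Lyz2 made up most of that sum, at 269 CPM on average in vehicle and 97.2 CPM after treatment. Csf1r, the 1 that rose, held 24.9 and 29.2 CPM on average. The part of these shifts in the results below was not tested. Over the 12 libraries, cardiomyocyte markers summed to 6.60 to 23.4 CPM, epicardial markers to 16.2 to 50.6 CPM and Schwann cell markers to 0.335 to 1.12 CPM. Tnnt2 made up most of the cardiomyocyte sum, at 17.5 CPM on average in vehicle at 24 h and 6.51 CPM after treatment. Of the 7 cardiomyocyte markers it alone passed the filter on low counts at 24 h, and it fell. Myh6 and Nppa were at or near 0. These are bulk samples, in which fewer cells of a type and less RNA per cell cannot be told apart. Vehicle replicate 1 at 4 h stood apart from the other vehicle libraries of that time, with a chi-square per gene of 34.4 and 36.6 against them, where every other pair of libraries within a group lay between 7.23 and 15.2.

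The 4 receptor genes and Hey2 split between those that rose, those that fell and 1 that was not called at 24 h, and their promoters are shown for that reason. Sequences are the 250 bases before the annotated start on the gene's strand, 5′ to 3′, from RefSeq on GRCm38.p6, which is another build than that of the counts. Of the 10 genes, 7 matched an entry (Notch1 to Notch4, Jag1, Jag2 and Hey2). Capitals mark motif matches, which are GC boxes (GGGCGG, or CCGCCC on the other strand) except for TTCCCA in Hey2.
Notch1 (chr2:26503823-26504072, minus strand): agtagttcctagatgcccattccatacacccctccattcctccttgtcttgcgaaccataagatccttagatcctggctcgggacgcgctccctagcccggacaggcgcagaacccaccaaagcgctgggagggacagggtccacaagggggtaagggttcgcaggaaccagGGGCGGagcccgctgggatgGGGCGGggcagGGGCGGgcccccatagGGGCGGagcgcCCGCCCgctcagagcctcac
Notch2 (chr3:98013288-98013537, plus strand): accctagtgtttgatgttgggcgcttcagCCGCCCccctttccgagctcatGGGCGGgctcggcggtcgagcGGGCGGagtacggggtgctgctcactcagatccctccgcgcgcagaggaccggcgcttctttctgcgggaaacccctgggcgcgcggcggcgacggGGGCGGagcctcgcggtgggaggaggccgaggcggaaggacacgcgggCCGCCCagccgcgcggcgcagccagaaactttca
Notch3 (chr17:32166891-32167140, minus strand): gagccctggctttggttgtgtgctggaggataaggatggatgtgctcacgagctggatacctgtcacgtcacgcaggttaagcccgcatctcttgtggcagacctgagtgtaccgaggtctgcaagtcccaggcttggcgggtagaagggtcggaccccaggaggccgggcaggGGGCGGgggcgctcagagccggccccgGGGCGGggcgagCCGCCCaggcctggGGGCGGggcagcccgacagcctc
Notch4 (chr17:34564045-34564294, plus strand): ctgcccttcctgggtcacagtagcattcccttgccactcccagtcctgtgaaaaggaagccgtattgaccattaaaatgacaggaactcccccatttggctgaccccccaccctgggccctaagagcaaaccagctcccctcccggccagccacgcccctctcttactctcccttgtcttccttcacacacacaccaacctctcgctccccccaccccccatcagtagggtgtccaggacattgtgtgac
Hey2 (chr10:30842784-30843033, minus strand): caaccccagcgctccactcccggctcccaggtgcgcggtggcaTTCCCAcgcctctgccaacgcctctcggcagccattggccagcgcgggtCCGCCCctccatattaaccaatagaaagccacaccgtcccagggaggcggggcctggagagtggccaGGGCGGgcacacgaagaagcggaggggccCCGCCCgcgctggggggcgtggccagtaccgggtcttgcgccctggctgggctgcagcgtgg

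Both strands of the 7 promoters were searched for the RBPJ core TGGGAA, the NRF2 element TGACNNNGC, the heat shock element GAANNTTC, the E-box CACGTG, the GC box GGGCGG and the TATA box TATAAA. The RBPJ core was found in Hey2 alone, as TTCCCA from 207 to 202 bases before the start, and 21.6% of 32851 promoter windows of the same length hold this motif. GC boxes were found in 5 of the 7 promoters and in 32.7% of all windows. Notch1, Notch2 and Jag2 each had 5 matches, Notch3 had 4 and Hey2 had 3, and Jag2 has a pair that overlap. Notch4 and Jag1 had none. The NRF2 element, heat shock element, E-box and TATA box, present in 10.2%, 6.69%, 6.02% and 12.4% of all windows, had no match in any of the 7. The GC content ran from 57.2% in Jag1 and 58.4% in Notch4 to 87.2% in Jag2, where the median window had 52.4%. Promoters with GC boxes thus belonged to genes that rose at 24 h (Notch1 and Notch2), to 1 that fell (Notch3) and to 2 that were not called (Jag2 and Hey2), and both promoters without them to genes that fell.

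After 24 h of treatment the genes of the family differed from vehicle in both directions. Notch3, Notch4, Jag1, Hes1, Hey1 and Heyl fell, Notch1 and Notch2 rose, and Jag2 and Hey2 were not called. The 8 called of 10 stand against 74.7% of all 15575 genes tested at that time, so being called was near the background. The 2 that rose stand against 36.7% of genes that rose, and the 6 that fell against 38.0% that fell. A log2 fold change of 1 or more in either direction was found in 5 of the 10 genes, of which Jag2 was not called, beside 32.1% of all genes. The median log2 fold change was −1.27, beside −0.02 over all genes. At 4 h 1 gene, Notch2, was called, against a background of 7.16% of 15336 genes (3.45% higher and 3.71% lower), and 3 of the 10 had an unadjusted p under 0.05. Scaling by library totals without TMM moved the median of all genes by −0.19 at 24 h, and lowered the share of higher calls among all called genes, which became 39.0% in place of 49.1% at 24 h and 34.5% in place of 48.2% at 4 h. Under it, 1 of the 10 genes rose and 6 fell at 24 h.

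**Figure D1:**
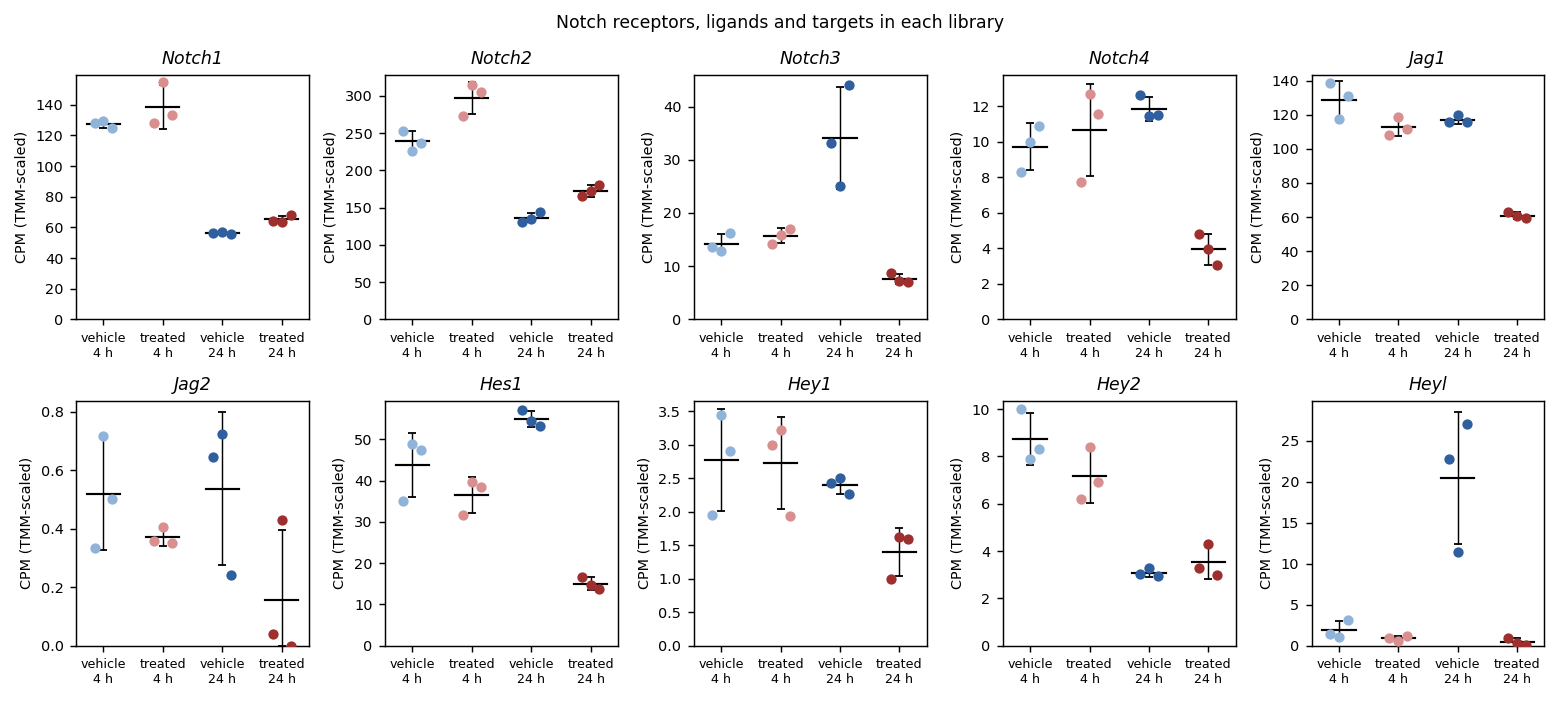
CPM after TMM scaling (vertical axes, starting at 0) of each of the 10 genes in the 12 libraries, by group; points are libraries, horizontal lines group means and bars SD over 3 libraries. On average Heyl and Notch3 are highest in vehicle at 24 h and lowest after 24 h of treatment, with Heyl at 20.4 and 0.442 CPM, while Notch1 and Notch2 are lower in all libraries of 24 h than in all of 4 h.

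Among the receptors, Notch1 (ENSMUSG00000026923, GRCm39 chromosome 2, 26347915 to 26406675, minus strand) held 128, 129 and 125 CPM in vehicle at 4 h and 128, 155 and 133 CPM after 4 h of treatment, and the groups overlapped (log2 fold change 0.12, SE 0.09, edgeR adjusted p = 0.461). At 24 h it held 56.2, 57.2 and 55.8 CPM in vehicle and 63.9, 63.7 and 67.9 CPM after treatment. All treated libraries lay above all vehicle libraries at 24 h, and Notch1 rose 1.15-fold (log2 fold change 0.20, SE 0.05, edgeR adjusted p = 0.00240). This rise depended on the scaling, since with library totals the log2 fold change was 0.01 (edgeR adjusted p = 0.903).

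Notch2 (ENSMUSG00000027878, GRCm39 chromosome 3, 97920843 to 98057677, plus strand), the most abundant receptor per length, rose at both times. At 4 h it held 253, 226 and 237 CPM in vehicle and 274, 314 and 306 CPM after treatment, with every treated library above every vehicle library (log2 fold change 0.32, SE 0.09, edgeR adjusted p = 0.0478). At 24 h the values were 131, 135 and 144 CPM in vehicle and 165, 172 and 181 CPM after treatment, again without overlap (log2 fold change 0.33, SE 0.05, edgeR adjusted p = 6.40e-06). The call at 4 h was lost with library totals (edgeR adjusted p = 0.0819), without treated replicate 1, 2 or 3 (0.0532, 0.198 and 0.217) and without vehicle replicate 2 or 3 (0.134 and 0.128).

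Notch3 (ENSMUSG00000038146, GRCm39 chromosome 17, 32339794 to 32385826, minus strand), the receptor known for its part in mural cells of arteries, fell most of the receptors. In vehicle at 24 h it held 33.1, 25.0 and 44.1 CPM, with replicate 2 the lowest, and 8.66, 7.13 and 7.0 CPM after treatment. The groups did not overlap, and Notch3 fell 4.51-fold (log2 fold change −2.17, SE 0.26, edgeR adjusted p = 8.61e-04). At 4 h it held 13.6, 12.9 and 16.3 CPM in vehicle and 14.2, 15.9 and 17.0 CPM after treatment, and these ranges overlapped (log2 fold change 0.15, SE 0.13, edgeR adjusted p = 0.534). With treatment at 24 h, most tested markers of pericytes and smooth muscle also fell. Their summed level over 9 genes was 160 to 175 CPM in vehicle at 24 h and 80.9 to 82.9 CPM after treatment. Of 7 tested 5 fell and none rose, where 38.0% of all genes fell and 36.7% rose. Smtn made up most of the sum. On average Cspg4 held 13.6 CPM in vehicle at 24 h and 6.68 CPM after treatment, Cnn1 17.3 and 3.79, and Mcam 8.39 and 1.75. Myh11 held 2.09 and 1.04 CPM and Des 1.40 and 1.06 CPM. Rgs5, Kcnj8 and Abcc9 were at or under 1 CPM on average in both groups of 24 h. From 4 h to 24 h in vehicle, Notch3 rose 2.38-fold, while 5 of 8 tested markers of these cells fell and 2 rose. In that comparison 25.8% of all genes fell and 25.9% rose. The part of pericytes and smooth muscle cells in either change of Notch3 was not tested.

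Notch4 (ENSMUSG00000015468, GRCm39 chromosome 17, 34783242 to 34807477, plus strand) held 12.6, 11.5 and 11.5 CPM in vehicle at 24 h and 4.78, 3.98 and 3.06 CPM after treatment. All vehicle libraries were higher than all treated ones, and Notch4 fell 3.01-fold (log2 fold change −1.59, SE 0.15, edgeR adjusted p = 8.28e-09). At 4 h the values were 8.29, 10.0 and 10.9 CPM in vehicle and 7.74, 12.7 and 11.6 CPM after treatment, which overlapped (log2 fold change 0.14, SE 0.18, edgeR adjusted p = 0.700). The 10 endothelial markers summed to 50.9 to 59.5 CPM in vehicle at 24 h and to 49.1 to 49.3 CPM after treatment. Of these 4 rose and 6 fell, where 36.7% of all genes rose and 38.0% fell. The sum thus joins shifts in both directions, with a median log2 fold change of −0.90. On average Tek went from 16.8 to 7.51 CPM and Cdh5 from 9.02 to 13.6 CPM. The part of endothelial cells in the fall of Notch4 was not tested. Annotated genes overlap 3 of the receptors, but their counts were low: at most 44 for a long non-coding RNA over Notch1, 10 for a transcript of unsettled biotype over Notch2 and 29 for a long non-coding RNA over Notch3, whose own count was 158 at its lowest.

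The receptors' makeup was compared per length, as each receptor's share of the summed CPM per kb of the 4. Notch2 made up 65.0% ± 1.53 (SD, n = 3) in vehicle at 4 h and 68.0% ± 0.991 after 4 h of treatment. At 24 h it made up 56.9% ± 2.32 in vehicle and 72.7% ± 1.21 after treatment, with no overlap between the latter groups. Notch3 made up 18.7% ± 3.98 in vehicle at 24 h, and 5.16% ± 0.631, 4.79% ± 0.291 and 4.28% ± 0.628 in vehicle at 4 h, after 4 h of treatment and after 24 h of treatment. Its share was thus high in 1 group of the 4. Notch1 made up 26.3% ± 1.15 in vehicle at 4 h and 17.8% ± 1.43 in vehicle at 24 h, where Notch4 went from 3.55% ± 0.550 to 6.62% ± 0.653. These shares are a description and were not tested.

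**Figure D2:**
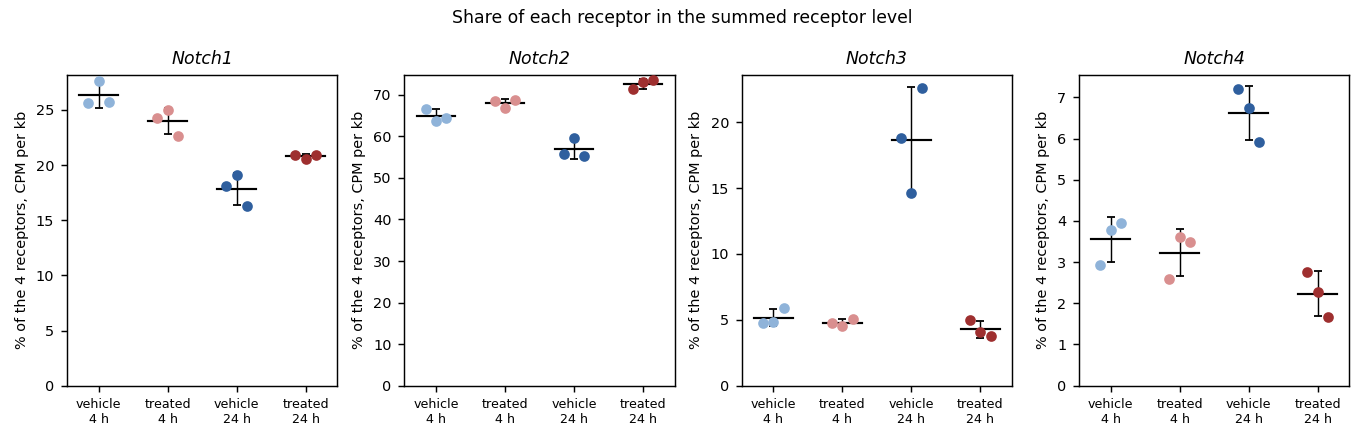
Share of each receptor in the summed CPM per kb of the 4 receptors (percent, vertical axes starting at 0) in the 12 libraries; points are libraries, lines group means and bars SD over 3 libraries. Notch3 takes 18.7% in vehicle at 24 h and 4.28% after 24 h of treatment, and Notch2 goes from 56.9% to 72.7%.

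Of the ligands, Jag1 (ENSMUSG00000027276, GRCm39 chromosome 2, 136923376 to 136958564, minus strand) was by far the more abundant. It held 116, 120.1 and 116 CPM in vehicle at 24 h and 62.9, 60.6 and 59.2 CPM after treatment. The libraries of each group lay close together and the groups far apart, and Jag1 fell 1.93-fold (log2 fold change −0.95, SE 0.05, edgeR adjusted p = 1.28e-12). The earlier values of Jag1 were 138, 117 and 131 CPM in vehicle at 4 h and 108, 119 and 112 CPM after treatment, with overlap (log2 fold change −0.19, SE 0.09, edgeR adjusted p = 0.212).

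Jag2 (ENSMUSG00000002799, GRCm39 chromosome 12, 112871439 to 112893396, minus strand), a second Jagged ligand, was near the limit of detection. Its raw counts were 11, 20 and 14 in vehicle and 10, 11 and 10 after treatment at 4 h. At 24 h they were 24, 22 and 8 in vehicle and 1, 13 and 0 after treatment, and the 0 in treated replicate 3 allows a level of up to 0.133 CPM, at 3 counts and for counting error only. Jag2 was not called at 4 h (log2 fold change −0.46, SE 0.41, edgeR adjusted p = 0.542) or at 24 h (log2 fold change −1.59, SE 0.79, edgeR adjusted p = 0.0871). The 24 h value rested on treated replicate 2, which held most of the group's counts. Without it the log2 fold change was −4.41 (edgeR adjusted p = 0.00196), without vehicle replicate 3 it was −1.95 (0.0376), and with no filter on low counts it was −1.64 (0.0190).

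Among the targets, Hes1 (ENSMUSG00000022528, GRCm39 chromosome 16, 29883202 to 29886614, plus strand), a repressor read widely as a sign of Notch activity, held 57.1, 54.5 and 53.2 CPM in vehicle at 24 h and 16.7, 14.7 and 13.7 CPM after treatment. No treated library came near the vehicle range, and Hes1 fell 3.67-fold (log2 fold change −1.87, SE 0.08, edgeR adjusted p = 3.80e-14). At 4 h it held 34.9, 48.8 and 47.5 CPM in vehicle, with replicate 1 the lowest, and 31.6, 39.6 and 38.5 CPM after treatment, ranges that overlapped (log2 fold change −0.26, SE 0.14, edgeR adjusted p = 0.288). Without vehicle replicate 1, the library that stood apart, Hes1 was called lower at 4 h (log2 fold change −0.40, edgeR adjusted p = 0.0189).

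Heyl (ENSMUSG00000032744, GRCm39 chromosome 4, 123127349 to 123143668, plus strand), a Hey repressor known as a target of Notch3 in smooth muscle, had the largest change of the 10 genes. Its raw counts were 844, 347 and 897 in vehicle at 24 h and 23, 10 and 1 after treatment, or 22.7, 11.4 and 27.0 CPM against 0.949, 0.332 and 0.0443 CPM. Vehicle replicate 2 was the lowest of its group, as it was for Notch3, and still lay above every treated library. Heyl fell 46.0-fold (log2 fold change −5.53, SE 0.74, edgeR adjusted p = 0.00235). Leaving out 1 library gave log2 fold changes of −6.60 to −5.06, with an edgeR adjusted p of at most 0.0166. The value of −6.60 came without treated replicate 1 (edgeR adjusted p = 0.00664). The values of Heyl at 4 h were 1.46, 1.08 and 3.16 CPM in vehicle and 0.891, 0.630 and 1.23 CPM after treatment, with overlap (log2 fold change −1.04, SE 0.40, edgeR adjusted p = 0.152).

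Hey1 (ENSMUSG00000040289, GRCm39 chromosome 3, 8728419 to 8732316, minus strand), a repressor of the same family, held 2.42, 2.51 and 2.26 CPM in vehicle at 24 h and 0.990, 1.63 and 1.60 CPM after treatment. The groups did not overlap and Hey1 fell (log2 fold change −0.77, SE 0.25, edgeR adjusted p = 0.00992), a call lost without treated replicate 1 (edgeR adjusted p = 0.0525). At 4 h it held 1.95, 3.45 and 2.91 CPM in vehicle and 2.99, 3.22 and 1.94 CPM after treatment (log2 fold change −0.02, SE 0.26, edgeR adjusted p = 0.973). Hey2 (ENSMUSG00000019789, GRCm39 chromosome 10, 30708355 to 30718797, minus strand), a further repressor of the family, was not called at either time. It held 3.02, 3.26 and 2.95 CPM in vehicle at 24 h and 3.30, 4.31 and 2.97 CPM after treatment, ranges that overlapped (log2 fold change 0.20, SE 0.19, edgeR adjusted p = 0.355). The values of Hey2 at 4 h were 9.99, 7.90 and 8.33 CPM in vehicle and 6.20, 8.41 and 6.90 CPM after treatment, again with overlap (log2 fold change −0.29, SE 0.16, edgeR adjusted p = 0.301).

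**Figure D3:**
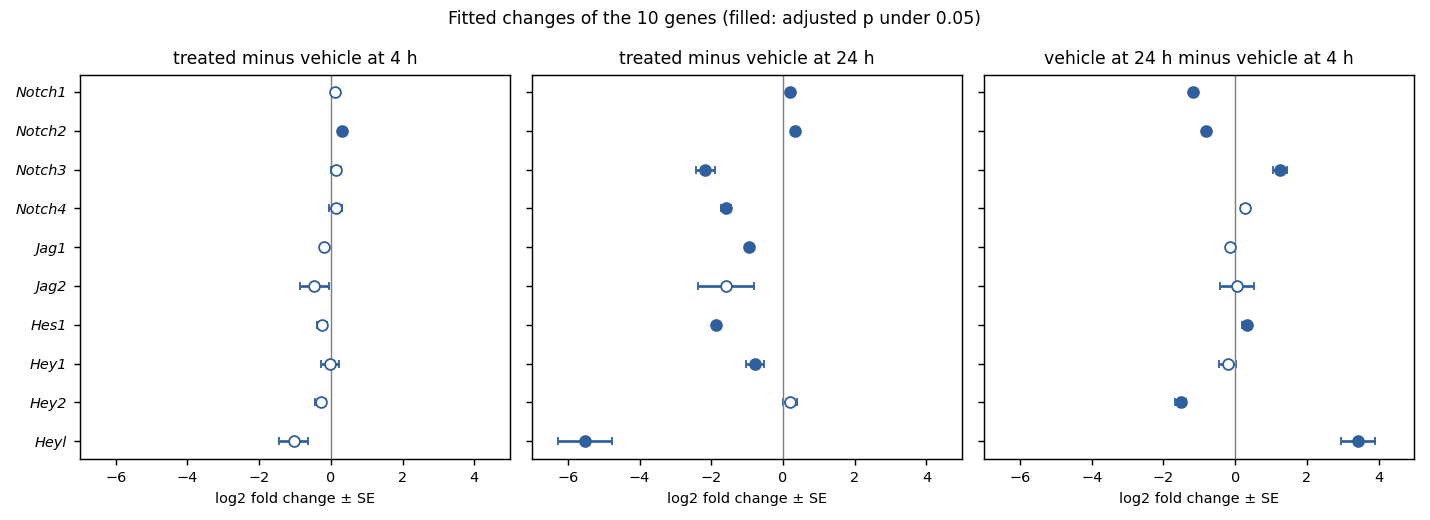
Fitted log2 fold changes (horizontal axes) of the 10 genes with their SE as bars, for treated minus vehicle at 4 h, treated minus vehicle at 24 h and vehicle at 24 h minus vehicle at 4 h; filled points passed an edgeR adjusted p of 0.05. Notch2 alone is filled at 4 h, and Heyl lies farthest from 0 at 24 h, at −5.53.

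Whether the response at 24 h differed from that at 4 h was tested as an interaction over the 12 libraries. The names of the group means in the deposited 24 h table start with KDC where those of 4 h start with C, which the labels do not explain, so time cannot be told apart from any other difference between the libraries of the 4 h and the 24 h table, here and in the comparison of vehicle groups. For 5 of the 10 genes it did, all toward a lower value at 24 h, against 53.8% of 16341 genes called in either direction (26.7% higher and 27.1% lower). The difference in log2 fold change was −4.48 for Heyl (SE 0.99, edgeR adjusted p = 0.00382) and −2.31 for Notch3 (SE 0.24, adjusted p = 9.25e-07). It was −1.72 for Notch4, −1.61 for Hes1 and −0.75 for Jag1 (adjusted p = 1.44e-05, 3.32e-07 and 4.09e-06). Notch1 and Notch2, whose log2 fold changes lay above 0 at both times, had differences of 0.09 and 0.02 that were not called (adjusted p = 0.489 and 0.885) and that turned to −0.054 and −0.12 with library totals. Hey1 and Hey2 pointed in opposite directions, at −0.74 and 0.50, and neither passed (adjusted p = 0.0938 and 0.0868), nor did Jag2 at −1.13 (0.335). Hey1 passed with library totals (0.0477), without treated 4 h replicate 3 (0.0404) and without vehicle 4 h replicate 2 (0.0466). Hey2 passed without treated 24 h replicate 3 (0.0485) or treated 4 h replicate 2 (0.0432), and Jag2 without treated 24 h replicate 2 (−3.94, 0.0103).

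The vehicle cells themselves differed between the times. From 4 h to 24 h in vehicle, Notch1, Notch2 and Hey2 fell, and Notch3, Hes1 and Heyl rose. These 6 of 10 stand against 51.7% of 15594 genes called (25.9% higher and 25.8% lower). Heyl rose 10.7-fold (log2 fold change 3.42, SE 0.48, edgeR adjusted p = 0.00122) and Notch3 2.38-fold (log2 fold change 1.25, SE 0.19, edgeR adjusted p = 5.91e-04). The rise of Heyl started from low raw counts of 48, 30 and 88 in vehicle at 4 h. Notch1 fell 2.27-fold, Notch2 1.76-fold and Hey2 2.86-fold (log2 fold changes −1.19, −0.82 and −1.52; adjusted p = 1.39e-06, 1.77e-05 and 2.77e-05). Hes1 rose by 0.32 on the log2 scale (SE 0.12, adjusted p = 0.0460), a call lost without vehicle 24 h replicate 1, 2 or 3 (0.135, 0.0984 and 0.0856), and that of Notch3 ended without vehicle 4 h replicate 1 (0.05001). Notch4, Jag1, Jag2 and Hey1 had values of 0.28, −0.15, 0.05 and −0.21 and were not called (adjusted p = 0.0902, 0.138, 0.935 and 0.467). Leukocyte markers summed to 91.7 to 100.4 CPM at 4 h and 325 to 379 CPM at 24 h over 6 genes, mostly Lyz2. Lyz2 held 65.7 and 269 CPM on average, and 6 of 6 rose, where 25.9% of all genes rose. Of 8 tested pericyte and smooth muscle markers 5 fell and 2 rose, where 25.8% of all genes fell. Their sums, mostly Smtn and Cspg4, were 211 to 267 CPM at 4 h and 160 to 175 CPM at 24 h. Of 4 epicardial markers 3 fell and none rose, with sums of 32.8 to 42.8 CPM at 4 h and 16.2 to 18.3 CPM at 24 h. Endothelial markers split into 5 that rose and 2 that fell of 10, and fibroblast markers into 4 and 2 of 10. Of 3 tested cardiomyocyte markers 2 fell and none rose. The part of these cells was not tested. This comparison and that of treatment at 24 h share the 24 h vehicle libraries.

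Levels of the 10 genes were ordered per length within each group. In vehicle at 4 h Notch2, Jag1 and Hes1 led with 22.2 ± 1.24, 22.1 ± 1.82 and 21.5 ± 3.76 CPM per kb (SD, n = 3), whose ranges overlapped. Notch1 followed at 8.96 ± 0.172, clear of both neighbours, and the rest lay at or under 1.90 ± 0.241, the level of Hey2. In this group Hey2 overlapped Notch3, Notch4 overlapped Hey1, Hey1 overlapped Heyl, and Jag2 was lowest at 0.0744 ± 0.0276 CPM per kb.

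After 4 h of treatment Notch2 stood alone at 27.6 ± 1.99 CPM per kb, above Jag1 at 19.4 ± 0.899 and Hes1 at 18.0 ± 2.14, which overlapped. Notch3, Hey2, Notch4 and Hey1 each overlapped the next in that order. In vehicle at 24 h the order was led by Hes1 at 27.0 ± 0.978 CPM per kb, then Jag1 at 20.1 ± 0.432 and Notch2 at 12.7 ± 0.590, with no overlap between these neighbours. Notch3, Heyl and Notch1 lay together there at 4.21 ± 1.19, 3.99 ± 1.57 and 3.96 ± 0.0502 CPM per kb, Notch4 followed at 1.47 ± 0.0820, and Hey1 and Hey2 overlapped at 0.734 ± 0.0388 and 0.670 ± 0.0361. After 24 h of treatment Notch2 led at 16.0 ± 0.732 CPM per kb, above Jag1 at 10.4 ± 0.316, Hes1 at 7.39 ± 0.763 and Notch1 at 4.58 ± 0.165, all without overlap. Heyl, among the middle levels in vehicle, was next to last at 0.0864 ± 0.0904 CPM per kb and overlapped Jag2 at 0.0226 ± 0.0342. Notch3 overlapped Hey2 and Notch4 overlapped Hey1 in this group.

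For each gene, the protein-coding gene with the most similar profile was sought among 13766 candidates, by the root mean square distance between log2 CPM profiles over the 12 libraries, each centred on its own mean. The nearest were Itprip for Notch1 (0.0661), Igsf9b for Notch2 (0.0787), Myo7a for Notch3 (0.151) and Cenpb for Notch4 (0.146). For the ligands they were Ebf2 for Jag1 (0.0669) and H2bc21 for Jag2 (0.539). For the targets they were Ephb4 for Hes1 (0.0723), Mcrip2 for Hey1 (0.183), Robo2 for Hey2 (0.176) and Gas1 for Heyl (0.602). The median distance to all candidates was 0.704 for Notch1 and 2.27 for Heyl, so the scale differs between genes. Gas1, the nearest to Heyl, had a log2 fold change of 4.37 from 4 h to 24 h in vehicle and of −5.10 with treatment at 24 h, where Heyl had 3.42 and −5.53. At 4 h the values were 0.54 for Gas1 and −1.04 for Heyl, and neither was called.

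Within the 10 genes, Notch1 and Notch2 were each other's nearest member (0.198), and Notch4 and Hes1 were likewise (0.205). Hey2 lay nearest to Notch1 (0.217) rather than to another target, Notch3 to Hes1 (0.389), Jag1 and Hey1 to each other (0.326), Jag2 to Hes1 (0.704) and Heyl to Notch3 (1.56). Many other genes lay between: 69 candidates were nearer to Notch1 than Notch2 was, and 2086 were nearer to Jag1 than Hey1 was. The profiles share their libraries, so these distances describe likeness over 4 groups.

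The rest of the pathway was followed in a list of 58 other genes by role. At 4 h 6 of 52 tested were called, 3 higher and 3 lower, beside 7.16% of all genes (3.45% higher and 3.71% lower), with a median log2 fold change of 0.06 against −0.01 over all genes. At 24 h 43 of 51 were called, 19 higher and 24 lower, beside 74.7% of all genes (36.7% higher and 38.0% lower), with a median of 0.01 against −0.02. The counts by role that follow are of few genes each, were not tested and are to be read beside these shares. Dll3, Dll4, Mfng, Nrarp, Hes5 and Hes7 did not pass the filter on low counts at either time, and Dtx1 did not at 24 h. The difference between the times was called for 36 of 52, 14 higher and 22 lower, beside 53.8% of all genes (26.7% higher and 27.1% lower). Vehicle at 24 h against 4 h was called for 30 of 51, 14 higher and 16 lower, beside 51.7% (25.9% higher and 25.8% lower).

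Of the enzymes that glycosylate the receptors, 4 of 4 tested fell at 24 h, where 38.0% of all genes fell. Lfng, a Fringe enzyme that tunes which ligands a receptor answers to, went from 6.29 ± 0.981 CPM in vehicle to 1.93 ± 0.250 CPM after treatment (log2 fold change −1.71, SE 0.19, edgeR adjusted p = 8.81e-08). It had also fallen at 4 h, from 5.02 ± 0.358 to 2.62 ± 0.324 CPM (log2 fold change −0.93, SE 0.17, edgeR adjusted p = 0.00704). Rfng, another Fringe gene, and Poglut1, which adds O-linked glucose, fell by 1.13 and 1.02 on the log2 scale at 24 h (adjusted p = 3.24e-09 and 5.68e-10). The fourth, Pofut1, which adds the O-linked fucose that Fringe enzymes extend, fell by 0.74 (adjusted p = 1.39e-10) and is named after its value was seen.

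Of the 4 ubiquitin ligases of the ligands, 3 rose at 24 h and 1 fell, where 36.7% of all genes rose and 38.0% fell. Mib2, one of the ligases that drive ligand endocytosis, rose from 20.1 ± 0.847 to 57.9 ± 5.04 CPM (log2 fold change 1.52, SE 0.07, edgeR adjusted p = 4.44e-13), and by 0.59 at 4 h (adjusted p = 0.00925). The one that fell, Neurl1b, is named after its values were seen, with log2 fold changes of −1.57 at 4 h and −3.93 at 24 h (adjusted p = 0.0105 and 6.34e-11). Of 7 tested genes of receptor turnover and inhibition, 4 rose and 1 fell at 24 h. Numbl, a relative of the Notch inhibitor Numb, rose at 24 h from 94.6 ± 6.22 to 228 ± 4.90 CPM (log2 fold change 1.27, SE 0.05, edgeR adjusted p = 2.37e-14) and at 4 h from 142 ± 22.3 to 215 ± 18.6 CPM (log2 fold change 0.60, SE 0.12, edgeR adjusted p = 0.0101). Dtx2, a Deltex ubiquitin ligase, rose at 4 h (log2 fold change 0.51, SE 0.13, edgeR adjusted p = 0.0438).

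The nuclear complex and its corepressors were mixed. All 7 genes of the complex were called at 24 h, 3 higher and 4 lower. Rbpj, the DNA-binding partner named here after its value was seen, fell by 0.61 (SE 0.05, adjusted p = 1.50e-09). The Mastermind genes, also named after their values were seen, went both ways. Maml3 and Maml2 fell by 2.41 and 0.72 (adjusted p = 6.84e-09 and 1.66e-08), and Maml1 rose by 0.57 (adjusted p = 7.39e-09). Of 10 corepressors 4 rose and 5 fell. Tle4 and Tle1, Groucho-type corepressors that Hes proteins recruit, rose by 1.13 and 1.05 (adjusted p = 1.05e-09 and 2.05e-11). Tle2, of the same type and named after its value was seen, fell by 1.84 (SE 0.22, adjusted p = 4.07e-07). Of 10 cleavage genes, which include the ADAM proteases and the gamma-secretase subunits, 4 rose and 4 fell, all by less than 1 on the log2 scale.

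Of the other canonical and non-canonical ligands, Dll1 was the only canonical one tested and was not called at 24 h (log2 fold change 0.80, adjusted p = 0.0648), and of 3 non-canonical ones 1 rose and 1 fell. Among 5 other targets tested at 24 h, 4 fell and none rose, again beside 38.0% and 36.7% of all genes. Ccnd1, which encodes cyclin D1 and answers to many growth signals, fell from 172 ± 5.18 to 27.8 ± 5.22 CPM (log2 fold change −2.63, SE 0.13, edgeR adjusted p = 3.48e-06), and by 0.36 at 4 h (adjusted p = 0.0229). Most 4 h calls of this list depended on single libraries. That of Ccnd1 was lost without treated replicate 1, 2 or 3 or vehicle replicate 3 (0.0726, 0.0901, 0.148 and 0.0692), that of Numbl without treated replicate 2 (0.0671) and that of Mib2 without treated replicate 2 or 3 (0.0625 and 0.0518). The call of Dtx2 was lost with library totals (0.0636) and without treated replicate 1, 2 or 3 or vehicle replicate 3 (0.0559, 0.197, 0.171 and 0.0912).

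**Figure D4:**
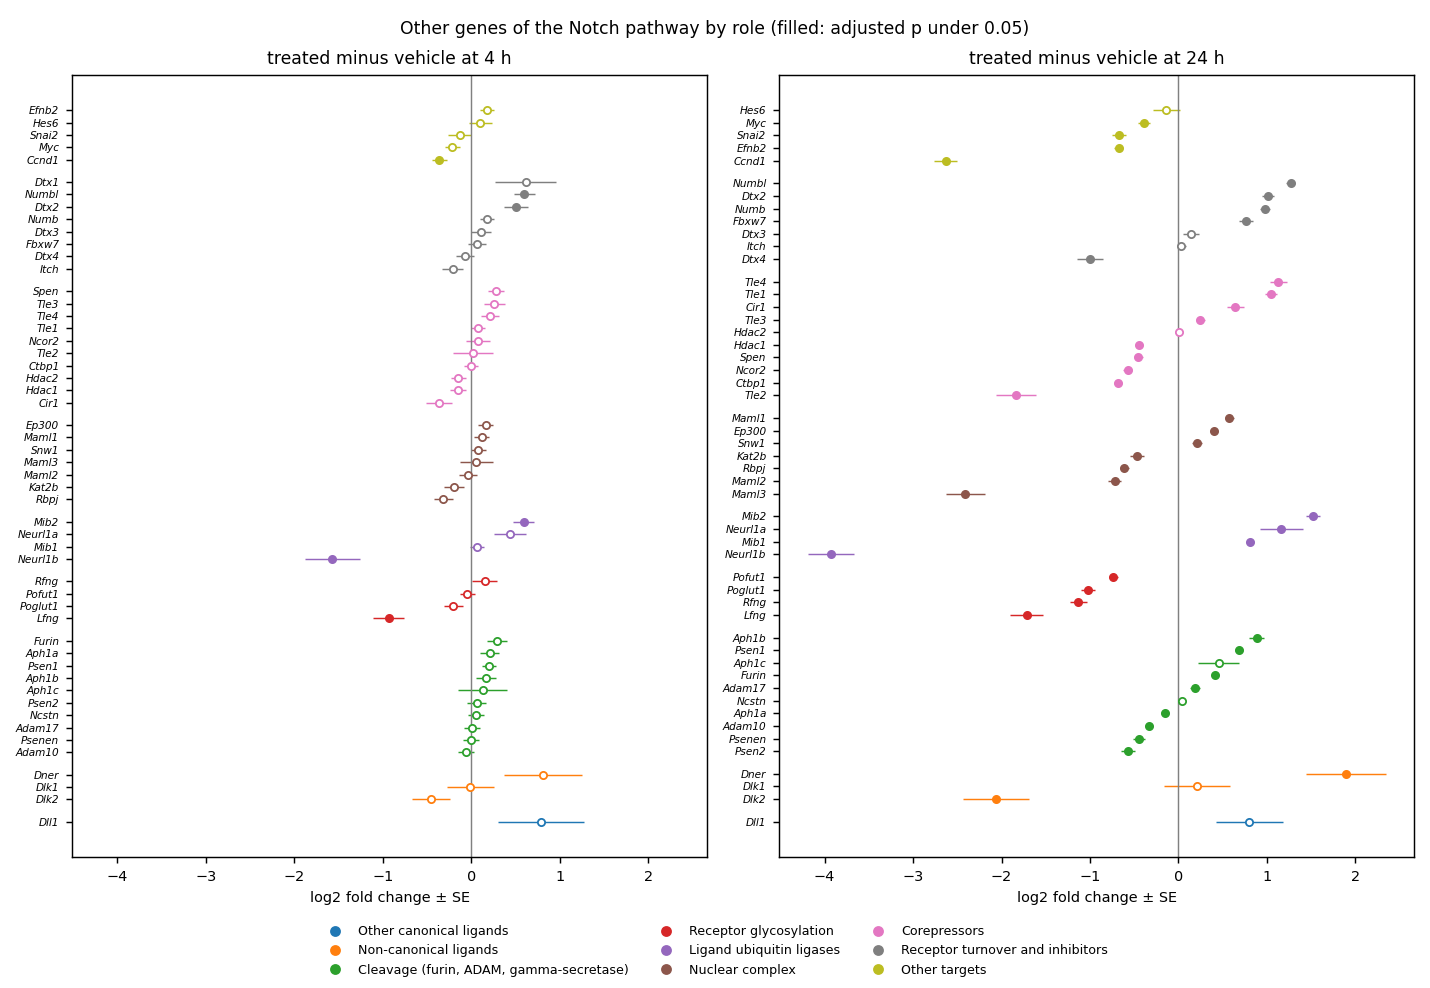
Fitted log2 fold changes (horizontal axes) of the tested genes of the 58 with their SE as bars, at 4 h (left) and 24 h (right), coloured by role; filled points passed an edgeR adjusted p of 0.05. At 4 h 6 points are filled, and at 24 h 43 are, with all 4 glycosylation genes below 0.

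The authors' deposited table was set beside these calls. In the authors' deposited table the adjusted p was under 0.05 for the same 8 of the 10 genes at 24 h and for Notch2 alone at 4 h, where it was 0.0164. The authors' deposited table gives a log2 fold change of −5.53 for Heyl and of −2.17 for Notch3 at 24 h, and an adjusted p of 0.133 for Jag2.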

How the data were processed

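RNA of mouse cardiac fibroblasts was measured in 12 libraries, 3 per group. Per the submitters' processing notes, which give no order, the tools were HISAT2 2.0.5, featureCounts 1.5.0-p3 and DESeq2 on GRCm39 (mm39). Per the file headers, the authors deposited 1 table per time point with raw counts, FPKM, log2 fold changes, p-values and adjusted p-values. Strandedness of the library kit and the aligner's settings are not given in the sources used here. The counts were tested here with edgeR 4.0.16 (quasi-likelihood, two-sided, robust, default filter on low counts, TMM; limma 3.58.1, R 4.3.3), with Benjamini-Hochberg adjustment over all genes tested and calls at an adjusted p under 0.05. Each comparison of 2 groups was fitted on its own 6 libraries, and the difference between responses on all 12. CPM values use TMM over all 12 libraries. FPKM served only the naming rule. The procedure was tested on simulated data with few changed genes, up and down alike, none of them of low count. That test does not cover genes with few counts or the many changed genes at 24 h. The 10 genes, the wider list and the markers were chosen with earlier results of these data known. The 10 genes are named whatever their result. From the wider list, the rule names, per time, the 4 called genes that rose most and the 4 that fell most, given a mean FPKM of at least 1 in the higher group. DESeq2 1.42.0, other scalings, no filter, 1 fit over all libraries, a replicate block and leaving out each library were alternatives. Promoters were read from RefSeq on GRCm38.p6, and no coordinates were converted.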

Additional observations from a re-analysis of the deposited data

Results flagged for a closer look

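The response to the compound differed between the 24 h and the 4 h libraries in 5 of the 10 genes, by the interaction test of edgeR over 12 libraries. The differences in log2 fold change, 24 h minus 4 h, were −4.48 for Heyl, −2.31 for Notch3, −1.72 for Notch4, −1.61 for Hes1 and −0.75 for Jag1. Each of the 5 was lower than vehicle at 24 h. At 4 h Notch3 and Notch4 had log2 fold changes of 0.15 and 0.14 and Jag1, Hes1 and Heyl had −0.19, −0.26 and −1.04. Leaving out 1 library gave differences of −5.56 to −4.01 for Heyl, with an edgeR adjusted p of at most 0.0179. The value of −5.56 came without treated 24 h replicate 1 (edgeR adjusted p = 0.00187).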

How the results depend on the processing

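Of 685 values recomputed for named genes, 636 kept their direction and their side of the threshold, 24 lost a call, 12 gained one and 13 changed sign. Among the 10 genes, the 1 called at 4 h became 0 with library totals without TMM and 2 with a replicate block, and ranged from 0 to 2 without 1 library. The count of the wider list at 4 h ranged from 1 to 7 without 1 library. Over all genes, the 1098 calls at 4 h became 2198 in a fit of all 12 libraries and 1953 with the replicate block, and ranged from 443 to 1760 without 1 library. Libraries with the same number deviated together with r of 0.0600 to 0.0899 at 4 h, each correlating best with its own number. The r was −0.0305 to 0.0221 at 24 h and −0.00916 to 0.0438 between the vehicle groups. The numbers were not taken as pairs, and the values at 24 h cannot decide that for 4 h. With the replicate block Heyl was called at 4 h (−0.98, edgeR adjusted p = 0.0407) and Jag2 at 24 h (−1.91, adjusted p = 0.0202), and no other call among the 10 genes or the named genes of the wider list changed. Changes of sign were confined to values that were not called: leaving out 1 library gave −0.0084 to 0.32 for Notch4 at 4 h, −0.23 to 0.17 for Hey1 at 4 h, −0.042 to 0.056 for the difference between responses of Notch2, and −0.20 to 0.41 for Jag2 in vehicle at 24 h against 4 h. Library totals gave differences between responses of −0.054 for Notch1 and −0.12 for Notch2. The cause of these shifts was not tested. Depth limits Jag2, Hey1 and, in every group but vehicle at 24 h, Heyl, whose counts were low.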
